A study of Caenorhabditis elegans with 2 samples.

Results

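Peaks of the muscle transcription factor UNC-120 that lie at transfer RNA (tRNA) genes were described in Caenorhabditis elegans embryos. A peak belonged here when its summit, the base of highest signal, lay within 300 bp of a nuclear gene annotated as tRNA, and 200 of 2946 nuclear peaks did (6.79%, Wilson 95% interval 5.94 to 7.75). The same rule read from the genes gave 212 of 612 nuclear tRNA genes with a peak (34.6%) and 400 without. The embryos were of strain OP659, with genotype unc-119(tm4063) III; wgIs659, which carries UNC-120 with GFP and FLAG at its C terminus, and chromatin was precipitated with an anti-GFP antibody. Whole embryos of mixed stage and pooled sexes were taken 3 h after egg bleaching, and chromatin was sheared by sonication. There were 2 biological replicates of this 1 group, so nothing here compares genotypes, stages or tissues. All embryos carried the transgene, whose promoter and expression pattern the sources used here do not give. Embryos without the GFP fusion, a control precipitation and read coverage were not analysed here, so signal that any GFP fusion might give at tRNA genes cannot be told apart from binding of UNC-120.

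UNC-120 is a MADS box protein related to vertebrate serum response factor, a family that binds the CArG box, and in worms it acts with HLH-1 and HND-1 in body wall muscle. Genes for tRNAs are transcribed by RNA polymerase III, not by the polymerase that makes messenger RNA. The factor TFIIIC recognises an A box and a B box inside the tRNA gene and places TFIIIB just upstream of the start, and transcription ends at a run of T. Worm tRNA genes are short, occur in many identical copies, are frequent on the X chromosome and often sit in introns of protein-coding genes.

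The sequence around one of the strongest peaks shows the parts that the results turn on. It is the leucine tRNA gene C04A11.t1 with its surroundings at chrX:13665437-13665697, forward strand, read from the RefSeq WBcel235 genome, with the tRNA gene in capitals. The summit lay 12 bp into the gene, and the upstream bases hold a run of alternating C and T.
C04A11.t1: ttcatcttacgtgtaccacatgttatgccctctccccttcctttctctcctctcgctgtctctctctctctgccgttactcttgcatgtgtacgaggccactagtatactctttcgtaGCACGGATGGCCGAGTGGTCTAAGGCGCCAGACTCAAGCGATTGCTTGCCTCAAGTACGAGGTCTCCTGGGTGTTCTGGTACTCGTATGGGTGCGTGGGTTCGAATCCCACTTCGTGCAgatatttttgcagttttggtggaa

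Further tRNA genes under strong peaks are given 5′ to 3′ on their own strand, with matches to the A box and the B box in capitals. The A box was searched as TNGCNNA, any 3 bases and G, and the B box as GTTCNANNC, both on the gene strand only. They are the leucine gene C04E7.t1 (chrX:353255-353336, reverse strand), the lysine gene C33G3.t2 (chrX:14063946-14064018, reverse strand), the arginine gene F29C4.t1 (chrIV:143982-144054, forward strand), the histidine gene C06G1.t1 (chrX:16634830-16634901, reverse strand) and the proline gene F46G11.t2 (chrX:5801211-5801282, reverse strand). The last 2 hold no match to the A box as spelled here.
C04E7.t1: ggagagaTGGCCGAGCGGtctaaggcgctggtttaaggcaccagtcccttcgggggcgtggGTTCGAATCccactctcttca
C33G3.t2: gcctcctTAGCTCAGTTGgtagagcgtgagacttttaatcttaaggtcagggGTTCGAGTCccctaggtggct
F29C4.t1: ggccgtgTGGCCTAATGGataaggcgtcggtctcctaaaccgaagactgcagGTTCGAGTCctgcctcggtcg
C06G1.t1: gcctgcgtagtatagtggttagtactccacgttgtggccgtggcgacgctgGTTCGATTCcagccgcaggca
F46G11.t2: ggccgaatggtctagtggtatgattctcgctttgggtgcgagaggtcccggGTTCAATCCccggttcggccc

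Identical tRNA genes differ in what lies before them. The histidine sequence above is shared by 11 genes, of which 3 had a peak, and the 80 bases before the gene are shown for 2 copies with a peak and for 2 without a region in any of the deposited lists. The family was chosen after its values were seen. Its difference in GC content of the 150 bp upstream was the widest among the families of 10 or more copies that could be printed. The copies with a peak are C06G1.t1 (chrX:16634902-16634981, reverse strand, GC 50%) and W09G10.t1 (chrII:3521559-3521638, reverse strand, GC 57.5%). Those without are F28H6.t3 (chrX:14135794-14135873, forward strand, GC 25%) and F28H6.t6 (chrX:14136196-14136275, reverse strand, GC 41.2%). The genes of these last 2 lie 178 bp apart. Their cluster on X also holds F28H6.t2, F28H6.t4, F28H6.t5 and F28H6.t7 of the same family, none with a peak.
C06G1.t1: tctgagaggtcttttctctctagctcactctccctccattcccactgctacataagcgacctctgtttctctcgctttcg
W09G10.t1: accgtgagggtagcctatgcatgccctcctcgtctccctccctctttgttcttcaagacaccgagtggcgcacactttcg
F28H6.t3: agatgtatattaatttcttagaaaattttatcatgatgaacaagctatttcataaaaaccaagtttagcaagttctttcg
F28H6.t6: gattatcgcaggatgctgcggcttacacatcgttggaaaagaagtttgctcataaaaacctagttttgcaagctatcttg

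The proline sequence above is shared by 24 genes, the largest such family that could be printed, and 8 of them had a peak. Its 80 upstream bases are shown for 2 copies with a peak, F46G11.t2 (chrX:5801283-5801362, reverse strand, GC 41.2%) and T23F1.t2 (chrV:15465297-15465376, reverse strand, GC 47.5%), and for 2 with no region in any list, F02H6.t1 (chrIV:14225022-14225101, forward strand, GC 48.8%) and R11G10.t2 (chrV:13507275-13507354, reverse strand, GC 31.2%). In this family GC content of these 80 bases does not separate the printed copies, since F02H6.t1 has the highest of the 4 and no peak. Over the 150 bp upstream it does not either. There it was 41.3% at F46G11.t2 and 34.7% at T23F1.t2, against 40.7% at F02H6.t1 and 31.3% at R11G10.t2. The summit at T23F1.t2 lay 21 bp downstream of that gene and was also within 300 bp of T23F1.t1.
F46G11.t2: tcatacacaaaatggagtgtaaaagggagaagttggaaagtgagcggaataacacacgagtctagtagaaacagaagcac
T23F1.t2: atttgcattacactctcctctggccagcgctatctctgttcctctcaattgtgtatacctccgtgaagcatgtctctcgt
F02H6.t1: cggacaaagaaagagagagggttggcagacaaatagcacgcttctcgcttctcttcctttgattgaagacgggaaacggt
R11G10.t2: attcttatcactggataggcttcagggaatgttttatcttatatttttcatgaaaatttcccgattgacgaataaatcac

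The values behind these descriptions were lists of regions with a summit and a score of peak strength, whose scale the labels do not state. The list that defined peaks holds the regions kept by the authors at their cut-off on irreproducible discovery rate (IDR), a measure of agreement between replicates. Ranked lists of peaks and background from each replicate and from the pooled replicates had 30000 regions each. No list gives read counts, so depth is unknown. Genes and peaks are not replicates, so comparisons between genes are given as shares or differences with 95% intervals, which treat genes as independent, and without a test.

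Annotated tRNA genes had peaks far more often than tRNA pseudogenes. A peak lay within 300 bp of 34.6% of nuclear tRNA genes (Wilson 95% interval 31 to 38.5), which is also the background share against which every subgroup below is read. Among 209 annotated tRNA pseudogenes, which are degenerate relics, 4 had one (1.91%, 0.747 to 4.82), a difference of 32.7 percentage points (Newcombe 95% interval 28.1 to 36.8). The count at pseudogenes was 4 with the strongest regions of replicate 1 and 3 with those of replicate 2. The 4 were T08B2.t1, C52E12.t1, D1046.t1 and Y60A3A.t2, with scores of 427, 362, 611 and 219, and the first 3 had the summit inside the pseudogene. No tRNA gene lay closer than 1346 bp to any of these 4 summits. The 300 bp windows around tRNA genes cover 0.376% of the nuclear genome.

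Other classes of small RNA genes had lower shares by the same rule. A summit lay within 300 bp of 84 of 346 small nucleolar RNA genes, which guide RNA modification (24.3%, 20.1 to 29.1), and of 15 of 129 small nuclear RNA genes of the splicing machinery (11.6%, 7.17 to 18.3). The count was 26 of 261 for microRNA genes (9.96%, 6.89 to 14.2) and 0 of 20 for ribosomal RNA genes, where the count of 0 allows up to 15% if the limit is set at 3 counts (Wilson upper limit 16.1%). For the 5′ ends of protein-coding genes it was 954 of 19973, or 4.78%. Genes for RNA polymerase III, its factors and tRNA maturation were read against that last share: 3 of 18 had a summit within 300 bp of the 5′ end (16.7%, 5.84 to 39.2). These were rpb-8 and rpb-5, for subunits shared by all nuclear polymerases, and rpac-19, for a subunit shared by polymerases I and III, with scores of 335, 213 and 242. No peak lay there at rpc-1 and rpc-2, for the largest subunits of polymerase III, at the TFIIIB gene brf-1, at the TFIIIC genes tftc-1, tftc-3 and tftc-5, or at mafr-1, for the repressor homologous to Maf1.

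**Figure D1:**
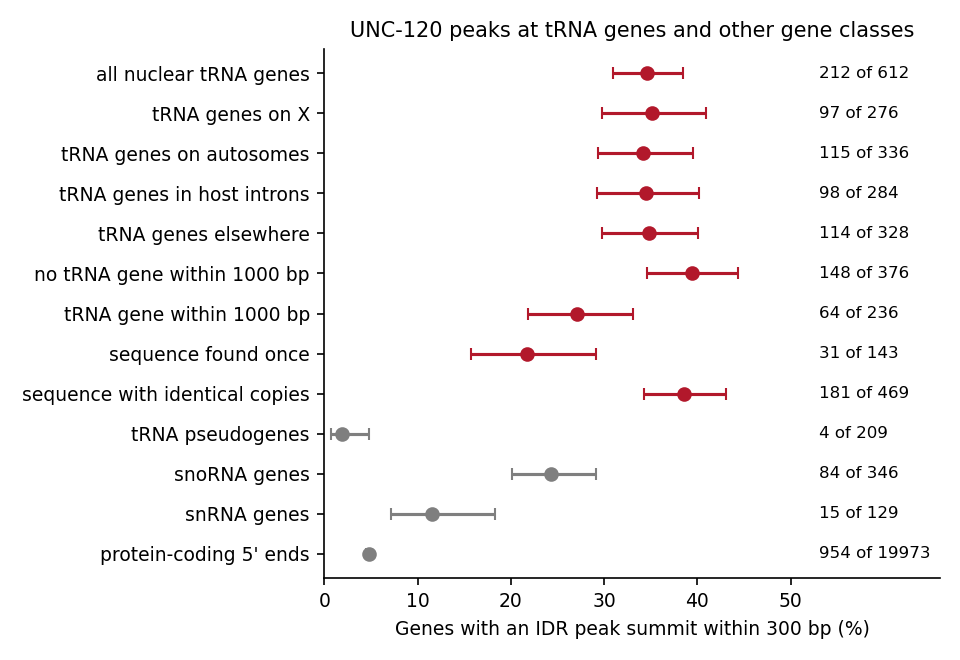
Share of genes with an IDR peak summit within 300 bp (x axis, %) for nuclear tRNA genes and their subgroups (red) and for other gene classes (grey). Points are shares, bars are Wilson 95% intervals and counts stand at the right; tRNA genes sit at 34.6% and tRNA pseudogenes at 1.91%.

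Peaks at tRNA genes were stronger than most others but not the strongest of all. Their scores had a median of 359 (188 to 1183), against 289 for the other 2746 nuclear peaks (185 to 2614). Of them, 134 of 200 stood among the 1473 strongest nuclear peaks (67%), against 48.8% of other peaks, a difference of 18.2 percentage points (Newcombe 95% interval 11.2 to 24.7). The highest of them ranked 20, and 10 stood among the top 100, which is 5% of peaks at tRNA genes and 3.28% of other peaks. Their regions had a median width of 398 bp, against 444 bp for other peaks. The third quartile was 444 bp in both sets, and many regions at tRNA genes had exactly this width. The medians are therefore not read as a difference in the extent of binding. The median rank was 1012, against 1510 for other peaks.

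The strongest peak lay inside rte-1, a glutamate tRNA gene on X (chrX:14015944-14016015). Its score was 1183, and it ranked 22 in replicate 1 and 16 in replicate 2. The next were the leucine gene C04A11.t1 with a score of 1009, the lysine gene W03G11.t1 with 996 and the glutamate gene C28G1.t1 with 985. All 4 lie on X, and the nearest protein-coding 5′ ends lay 539, 978, 1037 and 69 bp from their summits, in that order. The glycine gene M02F4.t1 followed with a score of 887, the histidine gene C06G1.t1 with 883 and the asparagine gene F41D9.t3 with 872. C06G1.t1 lies in an intron of C06G1.1 and F41D9.t3 in an intron of sulp-3, which codes for an anion transporter of the sulfate permease family. The leucine gene C04E7.t1 had 850, the lysine gene B0350.t1 on chromosome IV had 835 and the lysine gene C33G3.t2 had 829. In both replicates these 10 peaks ranked between 16 and 157. At the other end stood the tyrosine gene Y43F4A.t1, which scored 188 and ranked 2634 in replicate 1 and 3747 in replicate 2, and the threonine gene C40C9.t1, which scored 190 and ranked 3218 in replicate 1 and 3383 in replicate 2.

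Every amino acid was represented. All 20 standard amino acids had at least 1 tRNA gene with a peak, and the share ran between 16.7% for tryptophan (2 of 12 genes) and 48.8% for glutamate (20 of 41). Each of the 20 Wilson intervals held the share of all tRNA genes, 34.6%. The tRNA gene for selenocysteine and the 5 genes of undetermined amino acid had no peak, too few genes to set a useful limit. Of all tRNA genes, 33.5% had one of the strongest regions of replicate 1 and 35.3% one of replicate 2. Glutamate had 20 genes with such a region in each replicate and tryptophan 2, so both ends of the order were the same in each replicate taken alone. Between them, leucine had 17 of 39 genes with a peak, arginine 19 of 44, lysine 19 of 46, alanine and threonine 14 of 34 each, aspartate 11 of 27 and cysteine 5 of 13. Phenylalanine had 5 of 14, proline 14 of 42, valine 10 of 31, asparagine and methionine 6 of 20 each and glycine 16 of 55. Isoleucine had 8 of 29, tyrosine 5 of 19, glutamine 7 of 27, serine 10 of 39 and histidine 4 of 20. Neighbours in this order differ by far less than their intervals.

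The strongest peaks of the remaining amino acids had scores between 531 and 811. The highest was at F29C4.t1 for arginine, in an intron of the collagen gene col-99, with 811. F46G11.t2 for proline had 784, C37A2.t1 for cysteine 771 and F15G9.t1 for alanine 743. The host genes of the last 2 are cye-1, for cyclin E, and him-4, for the matrix protein hemicentin. C42D8.t1 for isoleucine had 726, C53C7.t2 for serine 697 and R01H5.t1 for threonine 674. C02B4.t2 for tyrosine, in an intron of the nuclear receptor gene nhr-17, had 660 and R04D3.t2 for valine 658. T15B12.t1 for methionine, in T15B12.1, had 576, F41A4.t1 for aspartate 572, R04A9.t1 for glutamine, in ZK1193.2, 532 and T28B4.t1 for phenylalanine, in the F-box gene fbxl-4, 531.

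Tryptophan tRNA genes include loci known from genetics, since mutant alleles of several sup genes read the amber stop codon. The strongest tryptophan peak was at sup-5, in an intron of fli-1, which scored 588 and ranked 287 in replicate 1 and 324 in replicate 2. The only other one was at sup-7, named after its values were seen, with a score of 325. The other 5 genes named sup, namely sup-21, sup-24, sup-28, sup-29 and sup-33, had no peak, although all 7 share 1 sequence with 3 further genes.

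**Figure D2:**
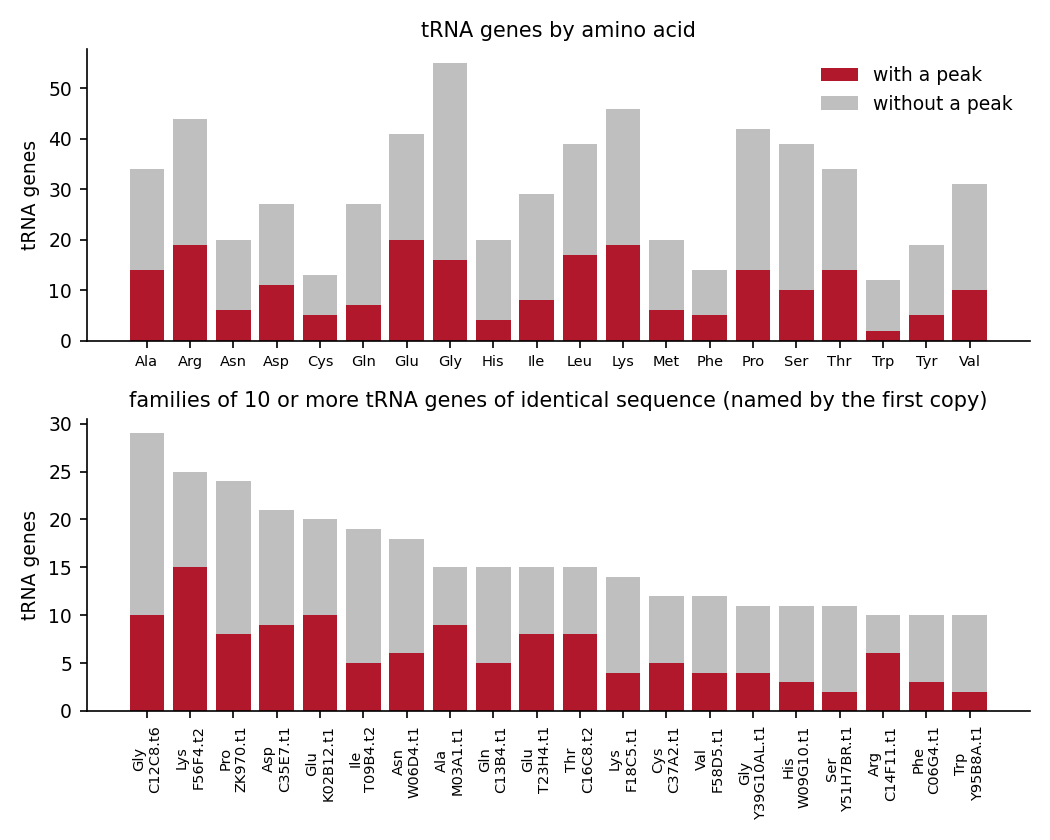
Number of tRNA genes (y axes) with a peak (red) and without (grey) for each of 20 amino acids (upper panel) and for the 20 families of 10 or more tRNA genes of identical sequence (lower panel, named by amino acid and first copy). Every bar holds both colours; tryptophan (2 of 12) and glutamate (20 of 41) have the lowest and highest share by amino acid.

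Nearly as large a part of these peaks as of the tRNA genes lay on the X chromosome. It carried 90 of the 200 peaks at tRNA genes (45%), against 576 of 2746 other peaks (21%), and 45.1% of nuclear tRNA genes. The share with a peak was 35.1% on X (97 of 276, 29.8 to 40.9) and 34.2% on autosomes (115 of 336, 29.4 to 39.5). The difference was 0.919 percentage points (Newcombe 95% interval -6.59 to 8.49), and it was -2.28 with the strongest regions of replicate 1 and 0.388 with those of replicate 2. Among autosomes the share was highest on III (30 of 64, 46.9%, 35.2 to 58.9) and lowest on V (17 of 78, 21.8%, 14.1 to 32.2). Those 2 intervals do not overlap, but III and V were picked as the extremes after the shares were seen. The intervals also treat genes as independent. The other autosomes lay between 33.8% and 36.8%.

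At tRNA genes, the peaks on X had the higher median score. It was 403 on X (n = 90; quartiles 279 and 532) and 327 on autosomes (n = 110; quartiles 262 and 419). Other peaks had medians of 283 on X and 292 on autosomes. In replicate 1 the medians at tRNA genes were 197 on X and 161 on autosomes, and in replicate 2 they were 200 on X and 173 on autosomes. Thus the order was the same in each replicate, with overlapping quartiles, and 9 of the 10 and 15 of the 20 strongest peaks at tRNA genes were on X.

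Position in a host intron made no detectable difference. Of 284 tRNA genes that lie whole in an intron of a protein-coding gene, 98 had a peak (34.5%), against 114 of 328 elsewhere (34.8%), a difference of -0.249 percentage points (Newcombe 95% interval -7.74 to 7.3). A difference of some points either way is within that interval. On X the shares were 35.8% in introns (34 of 95) and 34.8% elsewhere (63 of 181), and on autosomes 33.9% (64 of 189) and 34.7% (51 of 147). The shares by strand relative to the host were also near each other: 55 of 162 genes on the host's strand had a peak (34%), and 43 of 122 on the opposite strand did (35.2%). The median score was 338 in introns and 365 elsewhere. The 284 genes lie in 220 hosts, and 90 hosts had at least 1 tRNA gene with a peak.

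Several hosts held tRNA genes of both kinds. Of 46 hosts with 2 or more tRNA genes, 6 had a peak at every one. In some of these 6, such as F49D11.10 and rsa-2, 1 summit counted for both tRNA genes. Named after their values were seen, the junction gene ajm-1 holds 5 tRNA genes and 2 had a peak, while K01A12.3 holds 5 and none had. The host's own 5′ end rarely had a peak: it did for 5 of 98 intronic tRNA genes with a peak (5.1%, 2.2 to 11.4) and for 5 of 186 without (2.69%, 1.15 to 6.14), beside 4.78% of all protein-coding 5′ ends.

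Distance from promoters of protein-coding genes gave no clear order either. The share with a peak was 39.3% for tRNA genes up to 500 bp from a protein-coding 5′ end, 33.7% beyond that and up to 1000 bp, 38.1% up to 2000 bp and 30.5% beyond 2000 bp. Peaks at tRNA genes were themselves farther from such ends than other peaks. Their summits lay within 1000 bp of one in 37.5% of cases (75 of 200), against 58.6% of other peaks, a difference of -21.1 percentage points (-27.8 to -14). Where a peak away from any tRNA gene lay within 5000 bp, 37 of 96 tRNA genes had their own peak (38.5%), against 175 of 516 with none so near (33.9%).

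Isolated tRNA genes had a peak more often than tRNA genes close to another. With no other tRNA gene within 1000 bp, 148 of 376 had a peak (39.4%, 34.6 to 44.4), against 64 of 236 with one (27.1%, 21.8 to 33.1). The difference was 12.2 percentage points (Newcombe 95% interval 4.55 to 19.5), 12.5 in replicate 1 and 12.6 in replicate 2. On X it was 22.4 points (46.1% against 23.7%; 11.2 to 32.8) and on autosomes 3.64 points (35.3% against 31.7%; -7.6 to 14). These 2 differences were not tested against each other. The comparison depends on how close genes share a summit: with a window of 1000 bp in place of 300 bp the difference was -0.518 points. When tRNA genes within 600 bp were joined to 1 locus, 163 of 428 loci of a single gene had a peak (38.1%) and 29 of 80 loci of several genes did (36.2%). Among those 29, all genes were within 300 bp of a summit at 18. The 200 peaks include 19 with 2 tRNA genes in the window, and 7 tRNA genes had more than 1 summit.

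Copies of 1 sequence differed in whether they had a peak. The 612 tRNA genes have 200 distinct sequences, of which 57 occur more than once. Of those 57, 42 had copies with and copies without a peak, 5 had a peak at every copy and 10 at none. All 20 families of 10 or more copies, 317 genes in all, were mixed, with shares between 18.2% (serine, 2 of 11) and 60% (the lysine family of F56F4.t2 with 15 of 25, the alanine family of M03A1.t1 with 9 of 15 and the arginine family of C14F11.t1 with 6 of 10). The gene sequence itself, with its A and B boxes, is therefore the same on both sides of this comparison. How the authors placed reads that match several copies was not stated in the sources used here, and its part in these shares was not tested.

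Sequences found only once had a peak less often. Among 143 such genes 31 had one (21.7%, 15.7 to 29.1), against 181 of 469 genes with an identical copy (38.6%, 34.3 to 43.1). The difference was -16.9 percentage points (Newcombe 95% interval -24.4 to -8.32), and it was -18.2 and -15.9 in replicates 1 and 2. Among the 1473 strongest nuclear peaks, which reach fewer tRNA genes, it was -10.1 points. Motifs inside the gene showed smaller differences. The A box as spelled here matched in 335 genes, 36.4% of which had a peak, against 32.5% of 277 without a match. A gene without a match to this spelling is not read as lacking an A box. Identical copies match alike, so this split also sorts families of tRNA genes. A B box matched in 587 genes, of which 34.9% had a peak, against 7 of 25 without (28%, 14.3 to 47.6). Beyond the gene, a TTTT within 30 bp after it was present at 605, of which 34.9% had a peak. Without it 1 of 7 had a peak (14.3%, 2.57 to 51.3), too few genes to compare.

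The sequence before the gene differed most. Median GC content of the 150 bp upstream was 44% at tRNA genes with a peak (quartiles 40 and 47.3) and 38% at those without (33.3 and 42.7). It was 33.3% and 30.7% in the 150 bp downstream, with and without a peak, and 58.3% for both inside the gene. These comparisons were chosen after values were seen. The gap was widest between 41 and 60 bp upstream, where GC content averaged 49% ± 0.923 with a peak (SEM, n = 212) and 38.6% ± 0.655 without (SEM, n = 400). In that stretch C was higher by 6.32 percentage points and G by 3.99 at genes with a peak, and A was lower, at 21.7% with and 29.4% without. Farther out, in the bin centred 210 bp upstream, the order was the other way, 34.9% with and 37.8% without a peak. After the gene the gap was widest in the bin centred 170 bp downstream of the 5′ end. There GC content averaged 38.3% ± 0.925 with a peak and 33.1% ± 0.61 without (SEM).

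**Figure D3:**
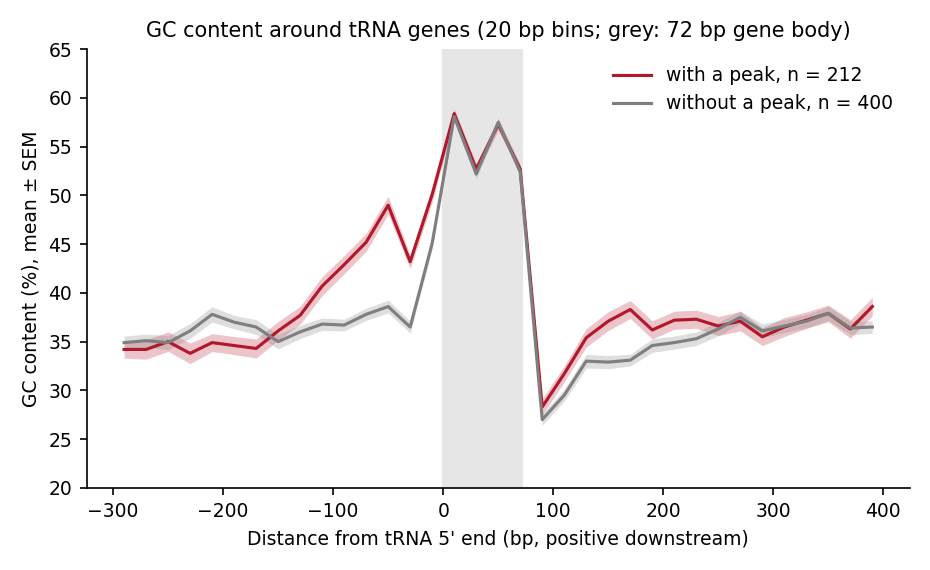
Mean GC content (y axis, %) in 20 bp bins around the 5′ end of tRNA genes (x axis, bp, positive downstream) with a peak (red, n = 212) and without (grey line, n = 400); bands are ± SEM over genes and the grey block is a gene body of 72 bp. The lines coincide inside the gene and part most upstream, with 49% against 38.6% in the bin centred 50 bp upstream. They also part downstream, with 38.3% against 33.1% in the bin centred at 170 bp.

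Divided by upstream GC content into 4 groups of nearly equal size, tRNA genes had a higher share with a peak at each step. In the lowest group, with GC between 20% and 35.3%, 19 of 165 had a peak (11.5%, 7.5 to 17.3). In the next, between 36% and 40%, 37 of 144 did (25.7%, 19.3 to 33.4), then 69 of 154 between 40.7% and 44.7% (44.8%, 37.2 to 52.7), and 87 of 149 between 45.3% and 62.7% (58.4%, 50.4 to 66). Intervals of neighbouring groups do not overlap up to the third, and those of the third and the highest do. The shares low to high were 9.09%, 25%, 44.2% and 57.7% with the strongest regions of replicate 1 and 12.7%, 26.4%, 48.1% and 55.7% with those of replicate 2.

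The same order of the 4 groups held in every subset divided in this way. On X the shares low to high were 13.4%, 26.8%, 54.8% and 67.4%, and on autosomes 8.82%, 24.7%, 38% and 54.4%. For sequences found once they were 0%, 16.7%, 31.4% and 37.8%, the first being 0 of 35, which by 3 counts allows up to 8.57% (Wilson upper limit 9.89%), and for sequences with identical copies 14.6%, 28.7%, 48.7% and 65.2%. For isolated genes they were 13.5%, 28.6%, 50.5% and 62.1%, and for genes close to another 8.7%, 21.7%, 36.1% and 50%. In 19 of the 20 families of 10 or more identical copies the median upstream GC was higher at copies with a peak, and in the cysteine family it was equal at 44%. Smaller families held exceptions. With and without a peak it was 39.3% and 42.7% in the leucine family of C27A12.t1. It was 45.3% and 46.7% in the leucine family of C04A2.t1, and 35.3% and 38.7% in the valine family of Y73B6BL.t1. At pseudogenes the median upstream GC was 36.7%. Of the 88 pseudogenes with at least 40.7%, the range of the upper pair of groups, 4 had a peak (4.55%), and of the other 121 none had (0 of 121, Wilson upper limit 3.08%). Read coverage, which can vary with GC content, was not analysed here.

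Summits lay over the gene itself. On the strand of the tRNA gene, the summit was a median of 24.5 bp downstream of its 5′ end (quartiles 4 and 53.2), with a range of -71 to 350 bp. Of the 200 summits 133 were inside the gene (66.5%), 42 upstream (21%) and 25 downstream (12.5%). Within 50 bp of the gene were 186 (93%), and 199 were within 200 bp, so the 300 bp limit decided few members. Just inside it lay a summit 199 bp from C10G8.t1, with a score of 312, and one 278 bp from C18A11.t2, with 460; just outside lay one 314 bp from rte-3, with 272, and one 421 bp from F58D5.t1, with 387. Each replicate's own summits gave medians of 26 bp (replicate 1, n = 198) and 17 bp (replicate 2, n = 200), with 56.1% and 59.5% inside the gene.

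The offset varied little between subgroups. Its median was 16 bp on X and 30 bp on autosomes, and 18 bp in host introns and 28 bp elsewhere, differences that are small beside the quartiles. Summits of both replicates for 1 peak were a median of 23 bp apart at tRNA genes and 27 bp at other peaks. Score medians were 347 for summits upstream, 365 inside and 312 downstream.

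**Figure D4:**
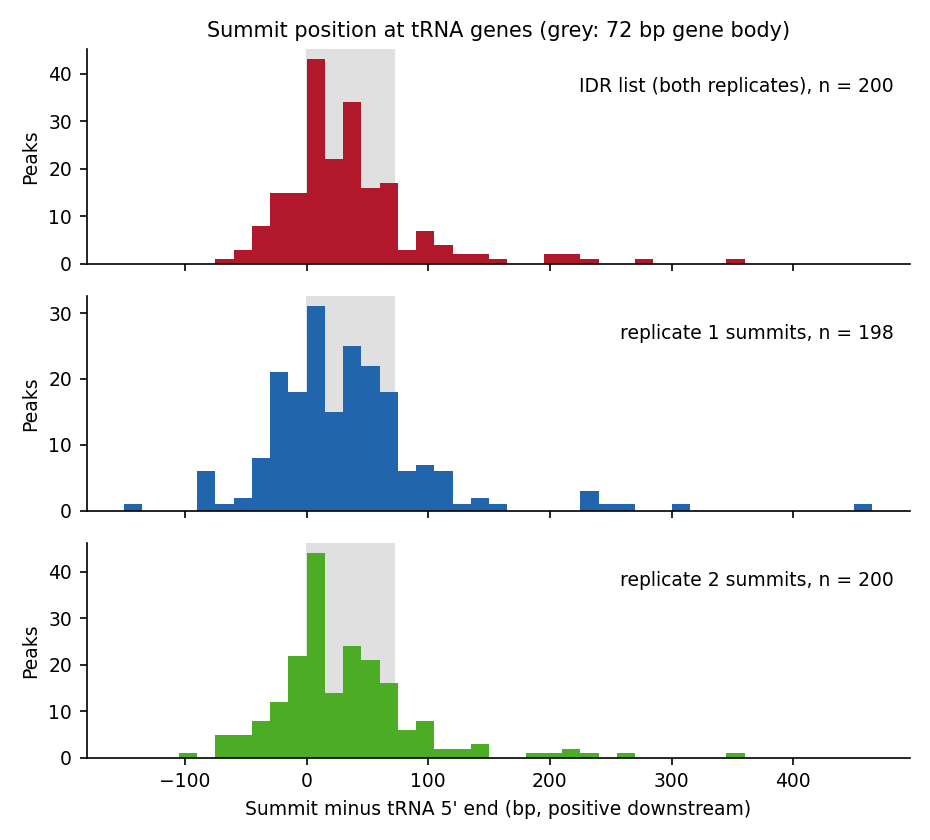
Number of peaks (y axes) by distance of the summit from the tRNA 5′ end (x axis, bp, positive downstream on the tRNA strand; 15 bp bins) in the IDR list (n = 200), replicate 1 (n = 198) and replicate 2 (n = 200); the grey block is a gene body of 72 bp. Most summits lie on the block, with medians of 24.5, 26 and 17 bp.

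Both replicates placed these peaks alike. Of the 200 peaks, 184 were among the 2946 strongest regions of replicate 1 (92%) and 191 among those of replicate 2 (95.5%), against 87.1% and 88.2% of other peaks. Median ranks were 1041 in replicate 1 (198 peaks matched within 200 bp) and 1082 in replicate 2 (200 matched). Across the 198 peaks matched in both, log2 scores had a Pearson correlation of 0.788 and scores a Spearman correlation of 0.837, against 0.754 and 0.723 across 2722 other peaks. The points share libraries and a list cut on IDR, so these are descriptions. That list was not limited to regions matched in both replicates, since 2 of the 200 peaks had no match in replicate 1. The larger rank was a median of 1.4 times the smaller at tRNA genes and 1.43 times at other peaks.

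A few summits had no close match in replicate 1, or a low one. The peaks at F31B12.t1, a glutamate gene in an intron of the phospholipase C gene plc-1, and at F33D11.t2, an arginine gene in the collagen gene col-54, had no region in replicate 1 and ranked 1313 and 2429 in replicate 2. Matched by the nearest summit, those at F46G11.t1, C29F7.t3 and F49D11.t2 ranked 19141, 25896 and 12917 in replicate 1, and 1224, 1911 and 1877 in replicate 2. The best replicate 1 region within 300 bp of the gene ranked higher at F46G11.t1 (191) and F49D11.t2 (3456), and was the same region, at 25896, for C29F7.t3. Second summits at C04A11.t1 and B0350.t1 ranked 9417 and 29107 in replicate 1, and 1482 and 4439 in replicate 2, while the first summits of both genes ranked high in both replicates. The reverse case was the second summit at F33G12.t1, with 359 in replicate 1, the rank its first summit also has there, and 1957 in replicate 2. These genes were named after their values were seen.

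**Figure D5:**
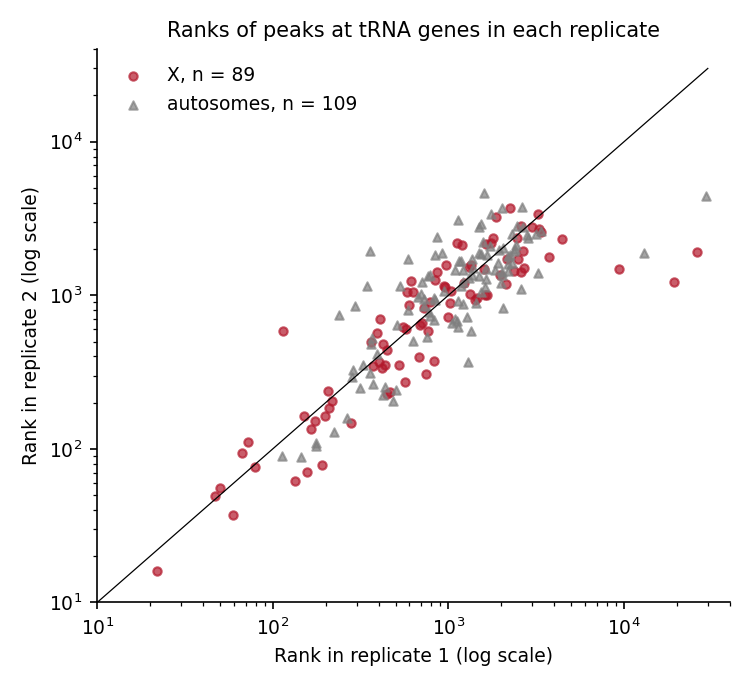
Rank in replicate 1 (x axis, log scale) and in replicate 2 (y axis, log scale) of each peak at a tRNA gene matched in both (circles X, n = 89; triangles autosomes, n = 109); the line marks equal ranks. Most points follow the line, the strongest peaks are mostly on X, and the few far to the right, such as C29F7.t3 at 25896 and 1911, rank low in replicate 1.

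Each replicate alone called nearly the same tRNA genes. The strongest regions of replicate 1 lay at 205 tRNA genes (33.5%) and those of replicate 2 at 216 (35.3%). They shared 190 genes, which is 92.7% of the genes of replicate 1 and 88% of those of replicate 2, while 15 were in replicate 1 alone, 26 in replicate 2 alone and 381 in neither. Of the 212 genes with a peak in the IDR list, 190 were called in both replicates. Of other IDR peaks, 87.1% were among the strongest regions of replicate 1 and 88.2% among those of replicate 2. The overlap was not counted for other gene classes, so it is not read as a trait of tRNA genes.

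The short motifs searched had lower shares at these summits than at other peaks, with an interval that excludes 0 for GAGAGAGA and intervals that include 0 for the CArG box and CAGCTG. Within 100 bp of the summit, on either strand, the CArG box matched at 1 of 200 peaks at tRNA genes (0.5%) and at 42 of 2746 other peaks (1.53%), a difference of -1.03 percentage points (Newcombe 95% interval -1.7 to 1.28). GAGAGAGA was present at 11 of 200 (5.5%) and at 17% of other peaks, a difference of -11.5 points (-14.3 to -7.24). The CT run printed above before C04A11.t1 is a match of this motif near a summit, on the other strand. The E-box CAGCTG was present at 5.5% and 9.69% of these sets, a difference of -4.19 points (-6.86 to 0.025). By the rule of membership, windows at tRNA genes hold tRNA gene bases, since 93% of those summits lay within 50 bp of the gene. What this does to the shares was not tested. Within 100 bp of the gene midpoint, GAGAGAGA occurred at 9 of 212 tRNA genes with a peak (4.25%, 2.25 to 7.87) and at 0 of 400 without, which by 3 counts allows up to 0.75% (Wilson upper limit 0.951%). CAGCTG occurred at 8 of 212 with a peak (3.77%, 1.92 to 7.27) and at 4 of 400 without (1%, 0.39 to 2.54). The CArG box went the other way, at 0 of 212 with a peak and at 2 of 400 without (0.5%, 0.137 to 1.8). That count of 0 allows up to 1.42% by 3 counts (Wilson upper limit 1.78%). Most tRNA genes with a peak thus held none of these motifs.

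Some genes without a peak had a region in the ranked lists. Of the 400, 164 had some region of the pooled ranked list within 300 bp (41%), but 49 had one ranked within double the length of the IDR list (12.2%, 9.39 to 15.8). In the lists of both replicates 117 had a region (29.2%). Since these lists run down into background, a region there is not a peak call. The same shares at other sites of the genome were not counted, so no background share stands beside these. The nearest to the threshold were the alanine gene T08A9.t1, the serine gene Y51H7BR.t1, in an intron of Y51H7BR.8, and the glutamate gene C44B7.t1, at pooled ranks 2955, 2966 and 2979. Their ranks were 3797, 3595 and 3264 in replicate 1 and 2809, 2875 and 2863 in replicate 2, so in replicate 2 all 3 stood above the length of the IDR list.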

How the data were processed

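The data were ChIP-seq region lists in narrowPeak format from 2 replicates, deposited by the authors in build ce11, the same sequence as WBcel235; lists in ce10 were not used. Column 7 is a score given by the authors' peak caller, used to rank and describe regions, and column 9 of the deposited lists is by format definition the −log10 of a q-value, not used in any result. Per the labels, the build was ce11 and chromatin was sonicated; the aligner, peak caller, control and treatment of multiply mapping reads: not given in the sources used here. Depth is unknown, and intervals cover counting error over genes or peaks only.

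Gene models were from Ensembl release 115, names, amino acids and tRNA pseudogenes from the RefSeq annotation, and sequences from the RefSeq WBcel235 genome; 607 of 612 nuclear tRNA genes had an amino acid. Each summit went to its nearest tRNA gene. Nuclear regions were ranked by descending score; a replicate rank is that of the nearest summit within 200 bp, so neighbouring summits can share one. Strongest regions of a replicate are its top 2946. Nothing was filtered. Alternatives changed the window, the overlap rule, the threshold, the joining of near genes or summits, and the replicate. Functions were tested on simulated data. The members and lists were chosen with earlier results of these data known. The naming rule took the tRNA genes at the 10 strongest peaks, at the strongest peak of each amino acid and at the 2 weakest, the 2 peaks just inside and outside 300 bp, the 3 genes without a peak nearest the threshold, hosts of these, and listed polymerase III genes with a peak. Python 3.11.15, numpy 2.4.6, pandas 2.3.3, scipy 1.17.1, statsmodels 0.14.6 and matplotlib 3.10.9 were used.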

Additional observations from a re-analysis of the deposited data

Results flagged for a closer look

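The IDR list also holds 5 mitochondrial regions, which are outside the nuclear description. Of these, 2 had a summit within 300 bp of a mitochondrial tRNA gene, with scores of 2227 and 229 at distances of 174 and 207 bp. They were singled out because they are signal in regions that no comparison used. All 5 summits lay between 174 and 411 bp from the nearest of 22 mitochondrial tRNA genes. The share of the mitochondrial genome within 300 bp of such a gene was not counted. Without that background share, the 2 are not read as signal at tRNA genes. In the ranked lists, mitochondrial regions numbered 12 for replicate 1 and 0 for replicate 2.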

How the results depend on the processing

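Of 62 values under alternatives, 39 stayed with the reported result and 22 moved, by more than the spread between replicates or, for counts, by over 1.5 times. In all 5 took the other sign, of which 1 was a difference whose reported interval excludes 0. That one, isolated minus close tRNA genes, was -0.518 percentage points with a window of 1000 bp, against 12.2 as reported; the wider window by its construction lets 1 summit count for several close genes. It was 15.1 with a window of 100 bp, 14.5 by overlap, 11.9 among the 1473 strongest nuclear peaks and between 12.5 and 12.6 with either replicate left out. X minus autosomes, 0.919 as reported, was 3.04 with 1000 bp, 3.4 among the strongest and between -2.28 and 0.388 with a replicate left out. Host introns minus elsewhere, -0.249 as reported, was 1.49 with 100 bp, 0.249 with 1000 bp, 1.23 by overlap, -1.81 among the strongest and between -1.4 and -0.812 with a replicate left out. Both differences thus have no settled sign, and all these values lie within the reported intervals. Sequences found once minus identical copies was -10.1 among the strongest, against -16.9. The upstream GC difference was 5.33 points with 1000 bp and among the strongest, and between 5.33 and 6 with a replicate left out, against 6. The median summit offset was 15.5 bp among the strongest and between 19 and 24 bp with a replicate left out. The median rank percentile, 34.4 as reported, was 46.5 among the strongest, where by construction fewer peaks are ranked, and between 34.9 and 38.3 with a replicate left out. Where no construction is named, the cause was not tested. The number of peaks ran between 134 and 209, of tRNA genes between 146 and 247 and of pseudogenes between 3 and 5. The results on pseudogenes, upstream GC and identical copies were added after seeing the data. No paired analysis was possible because there was 1 group. Unknown depth limits what can be said of genes without a peak.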
